A study of Mus musculus with 36 samples.

Results

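Wild-type (WT) mouse microglia incubated with IFN-b for 24 h were compared with untreated WT microglia, on 4 of the 36 arrays of a study of the ubiquitin-specific protease USP18. The compared arrays were 2 of WT microglia after 24 h with IFN-b (500 U/ml, a type I interferon) and 2 of WT microglia left untreated (0 h), labelled as biological replicates 1 and 2 of each group. They were chosen by genotype, time and place in the deposition order, as the WT arrays deposited in 1 run with the Usp18 knockout (KO) arrays. The other 8 arrays of that run, which enter the fit, were 2 of WT microglia at 6 h with IFN-b and 6 of KO microglia (2 at 24 h, 2 at 6 h and 2 untreated). A second run of 12 arrays held WT microglia and microglia of Usp18_C61A mice, each with 2 arrays at 24 h, 2 at 6 h and 2 untreated. The C61A arrays enter only the fit from which the second WT run was read. KO microglia came from Usp18ko mice, and all cells were primary cultures grown in DMEM with fetal calf serum. The labels give neither strain, age nor sex of the mice, nor how the microglia were isolated, nor which cultures shared an animal, so the p-values measure the spread between these arrays. The values are probe set intensities on the log2 scale as deposited, read as log2 from their range.

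Type I interferons bind a receptor whose kinases activate latent transcription factors. With IRF9 these form a complex that binds interferon-stimulated response elements in promoters and turns on interferon-stimulated genes, among them direct antiviral effectors, GTPases that attack intracellular pathogens, chemokines and the machinery that loads peptides on MHC class I. Microglia are the resident macrophages of the brain and respond to type I interferon in infection and inflammation. USP18 is itself an interferon-stimulated gene: it removes the ubiquitin-like protein ISG15 from its targets and, at the receptor subunit IFNAR2, restrains further signalling.

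The genes with the largest rises at 24 h differed in whether the core of the response element stood in their proximal promoter. The sequences below are RefSeq promoters of build GRCm38.p6, each read from the 250 bases before the annotated start, 5′ to 3′ on the gene's strand. The motif searched was GAAA, any 2 bases, GAAA on both strands (on the other strand TTTC, any 2 bases, TTTC). Capitals mark each match, which is shown with 25 bases on either side, or as many as lie before the start (the stretch of Ddx60 ends at the start). Going down the genes in order of their rise, 36 genes were passed to reach 8 promoters with the motif and 2 without it, and the promoters of 10 of the 36 (Ccl5, Iigp1, Mx1, Gbp6, Zbp1, Usp18, Cfb, BC023105, Oas2 and H2-T24) were not analysed here. After the first 2 without the motif, further promoters without it were passed over and are not shown. The 8 and the 2 are thus not a share of the 36. The 8 with the motif are shown first, since its copies vary in number and place. Oas3 (chr5:120777700-120777759, minus strand) had 1 match 75 bases before the start, Gbp2 (chr3:142620579-142620638, plus strand) had 1 at 59 bases, Rsad2 (chr12:26456538-26456597, minus strand) had 1 at 120 bases and Gbp2b (chr3:142594685-142594744, plus strand) had 1 at 137 bases. Ifit3 (chr19:34583348-34583441, plus strand) had 2, at 156 and 122 bases, Ifit1 (chr19:34640760-34640838, plus strand) had 2, at 104 and 85 bases, and Ddx60 (chr8:61928009-61928086, plus strand) had 2, at 53 and 19 bases. Gbp3 (chr3:142559974-142560039, plus strand) had 2 that overlap each other, at 45 and 39 bases. It has 2 promoters in the table, of which 1 held the motif.
Oas3: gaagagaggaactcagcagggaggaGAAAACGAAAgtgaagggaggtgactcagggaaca
Gbp2: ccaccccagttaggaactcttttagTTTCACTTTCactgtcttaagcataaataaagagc
Rsad2: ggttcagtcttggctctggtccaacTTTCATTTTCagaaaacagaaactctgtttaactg
Gbp2b: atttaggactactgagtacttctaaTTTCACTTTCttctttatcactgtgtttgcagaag
Ifit3: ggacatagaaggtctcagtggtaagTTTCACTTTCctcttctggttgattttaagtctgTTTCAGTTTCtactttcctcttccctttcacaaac
Ifit1: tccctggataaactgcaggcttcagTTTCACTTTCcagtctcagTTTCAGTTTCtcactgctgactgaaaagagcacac
Ddx60: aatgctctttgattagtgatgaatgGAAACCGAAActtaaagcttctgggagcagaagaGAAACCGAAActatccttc
Gbp3: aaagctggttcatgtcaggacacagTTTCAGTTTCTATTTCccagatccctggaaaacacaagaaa

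The whole 250 bases are shown for the 2 genes at the top of the order, which held no match. They are Ms4a4c (chr19:11407411-11407660, plus strand) and Cxcl9 (chr5:92328080-92328329, minus strand). No match says only that these letters are not in this window.
Ms4a4c: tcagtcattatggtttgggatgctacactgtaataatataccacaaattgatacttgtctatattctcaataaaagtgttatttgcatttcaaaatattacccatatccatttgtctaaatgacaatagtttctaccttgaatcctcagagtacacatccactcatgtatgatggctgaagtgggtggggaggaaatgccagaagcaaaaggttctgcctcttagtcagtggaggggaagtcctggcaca
Cxcl9: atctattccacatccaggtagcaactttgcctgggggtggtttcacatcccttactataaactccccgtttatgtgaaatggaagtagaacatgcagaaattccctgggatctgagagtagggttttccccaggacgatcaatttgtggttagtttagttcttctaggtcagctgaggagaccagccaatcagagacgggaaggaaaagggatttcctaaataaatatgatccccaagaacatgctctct

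Among the 49 genes that rose by at least 3 on the log2 scale and had a promoter entry, 18 (36.7%) held the motif. Over all genes that rose it was 33 of 221 (14.9%), over those that fell 2 of 49 (4.08%), over genes not called 185 of 5913 (3.13%), and over all promoters listed 978 of 32851 (2.98%). Of the 8 tested members of the interferon-inducible GTPases with an entry, 7 held it, as did 8 of the 21 tested antiviral effectors with an entry. It stood in 1 of 13 such genes of class I antigen presentation, 0 of 3 of ISG15 conjugation and 1 of 4 Schlafen genes. These shares describe letters in a window and carry no test.

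The genes with the largest changes were genes that rose. Of 7528 genes tested, 267 were higher at 24 h than at 0 h (3.55%) and 64 were lower (0.85%), at an adjusted p under 0.05 in limma over the 12 arrays of the run. The median change of the genes that rose was 1.60 on the log2 scale, and that of the genes that fell was -1.33, with a median of -0.03 over all genes tested. Rises of at least 1 were seen in 211 of the 267 genes and of at least 3 in 62, against falls of at least 1 in 43 of the 64 genes and of at least 3 in 1 gene, Cytip. In all 331 called genes both 24 h arrays lay on the same side of both 0 h arrays. That alone was common: both 24 h arrays lay above both 0 h arrays in 26.9% of the genes tested and below them in 31.3%. How many genes fell beside those that rose depends on the fit. With the replicate number within a genotype as a block 635 rose and 677 fell, with the 6 WT arrays alone 366 and 260, and with the 4 compared alone 383 and 303. The count of genes that fell was also smaller in each fit without 1 of the 4 arrays, which leaves 1 array in a group and so less precision. It was 13 without 24 h replicate 1, 16 without 24 h replicate 2, 9 without 0 h replicate 1 and 16 without 0 h replicate 2, and the count of genes that rose was then 161, 144, 148 and 179. Of the other arrays of the fit, leaving out either of KO microglia at 24 h or of WT microglia at 6 h lowered the count of falls. Leaving out either of KO microglia at 0 h or at 6 h raised it. The number of arrays, 2 a group, limits the precision throughout.

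**Figure D1:**
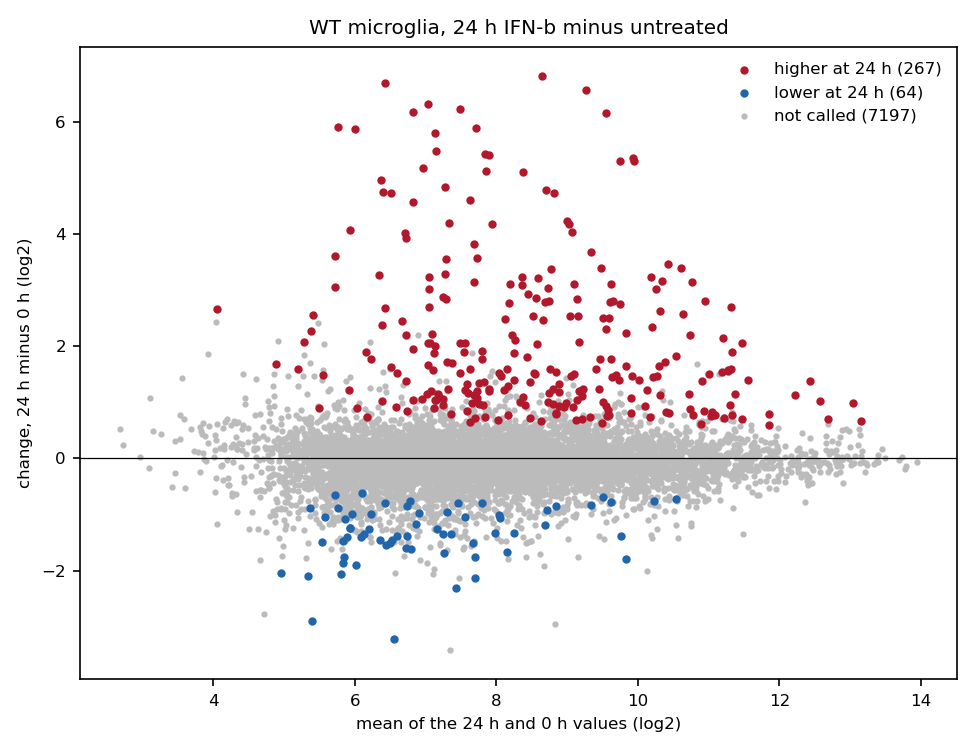
Change in WT microglia, 24 h IFN-b minus untreated (log2, vertical axis), against the mean of the 24 h and 0 h values (log2, horizontal axis), 1 point for each of the 7528 genes tested. The 267 genes that rose are red, the 64 that fell are blue and the others are grey. The called rises reach 6.82 and the largest called fall is 3.21 on the log2 scale.

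The correlation over probe sets was 0.990 between the 24 h arrays and 0.990 between the 0 h arrays, and the medians of the 4 arrays lay between 5.71 and 5.82. Xist, the RNA of the inactive X chromosome of female cells, had 10.66 in replicate 1 and 5.41 in replicate 2 at 24 h, against 10.75 and 5.42 at 0 h, so the replicates of each group differed in the same way. The labelled cell type was checked against its markers: all 11 microglia and macrophage markers on the array lay above the array median at both times, and their log2 values summed to 126 on both 24 h arrays, against 123 and 125 on the 0 h arrays. Of 7 monocyte and granulocyte markers, 7 lay below the array median at both times, as did 6 of 7 lymphocyte markers at 24 h and 7 of 7 at 0 h. The monocyte and granulocyte markers summed to 24.0 and 24.9 at 24 h, against 25.9 and 25.2 at 0 h, and the lymphocyte markers to 29.2 and 30.6, against 27.6 and 27.6. Other brain cell types left a partial signal, with 4 of 10 astrocyte markers above the array median at 24 h and 3 of 10 at 0 h. In these bulk samples, fewer cells of a type and less RNA per cell cannot be told apart.

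The leading rises were in genes of chemokines, antiviral proteins and GTPases. Ms4a4c, of the MS4A family of membrane proteins, had 12.09 and 12.01 on the 24 h arrays, against 5.12 and 5.34 on the 0 h arrays. It rose by 6.82 ± 0.21 on the log2 scale (SE, n = 2 arrays a group, adjusted p = 3.33e-07 in limma), a 113-fold change. Its probe set is of a type that can also bind transcripts of related genes, as were 22 of the 267 probe sets that rose (8.24%) and 819 of all 7528 (10.9%).

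Ccl5, a chemokine for T cells and monocytes, had 12.47 and 12.61 at 24 h, against 6.31 and 5.66 at 0 h. Cxcl9, a chemokine for activated T cells, had 10.05 and 9.48 at 24 h, against 3.14 and 3.02 at 0 h. The groups lay far apart in both, with changes of 6.56 ± 0.31 for Ccl5 (adjusted p = 4.48e-06 in limma) and 6.68 ± 0.71 for Cxcl9 (adjusted p = 0.000631). Irf7, the transcription factor that amplifies interferon production, had 12.53 and 12.74 at 24 h, against 6.55 and 6.39 at 0 h. It rose 71.4-fold (6.16 ± 0.18 on the log2 scale, adjusted p = 2.9e-07).

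Ifi209, a PYHIN family gene of nucleic acid binding proteins, had 10.29 and 10.08 at 24 h, against 3.81 and 3.95 at 0 h. Iigp1, a GTPase that acts on the vacuoles of parasites, had 10.57 and 10.62 at 24 h, against 4.10 and 4.64 at 0 h. Mx1, a dynamin-like antiviral GTPase, had 9.81 and 9.99 at 24 h, against 3.29 and 4.18 at 0 h. All 3 rose by more than 6 on the log2 scale, by 6.31 for Ifi209, 6.22 for Iigp1 and 6.17 for Mx1. Oas3, an oligoadenylate synthetase that activates RNase L, had 10.18 and 11.12 at 24 h, against 4.68 and 4.86 at 0 h, and its 24 h arrays were less alike than those of the genes before it. Ifit3, of a family that binds viral RNA, had 12.51 and 12.71 at 24 h, against 7.11 and 7.41 at 0 h (5.34 ± 0.15, adjusted p = 2.9e-07).

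The other 6 of the 15 largest rises lay between 5.40 and 5.91: the guanylate-binding proteins Gbp6 and Gbp2, the Schlafen gene Slfn1, the chemokine Ccl8, the exonuclease Isg20 and the sensor Zbp1. All 15 passed the threshold whichever 1 of the 4 arrays was left out. In 12 of the 15 the mean 0 h value lay below the median of the 0 h arrays, so that the size of the change depends on the low end of the array's scale. Over all 267 genes that rose, this held for 50.

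**Figure D2:**
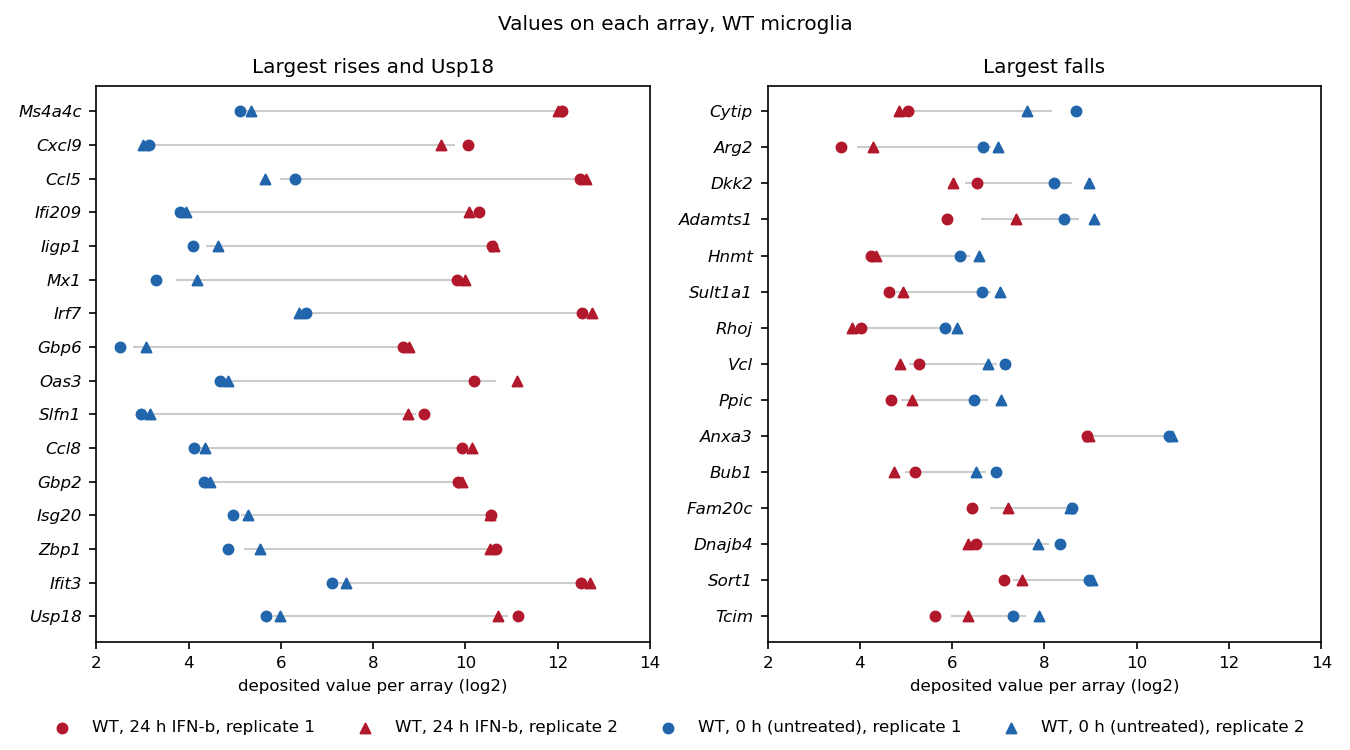
Deposited value (log2, horizontal axis) on each array for the 15 genes with the largest rises and Usp18 (left) and the 15 with the largest falls (right), with WT microglia after 24 h of IFN-b in red and untreated in blue. Circles are replicate 1, triangles replicate 2, and a grey line joins the group means; no 24 h point overlaps a 0 h point of the same gene, and the gaps on the left are wider than those on the right.

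Usp18 itself had 11.15 and 10.71 at 24 h, against 5.68 and 5.99 at 0 h. It rose 34.2-fold, by 5.09 ± 0.27 on the log2 scale (95% confidence interval 4.48 to 5.71, adjusted p = 7.6e-06 in limma). At 6 h it had stood at 12.56 and 12.41, so that the 24 h level was lower by 1.56 than the 6 h level (adjusted p = 0.00751). The enzymes that attach ISG15 rose as well. Uba7, its activating enzyme, had 10.15 and 10.13 at 24 h, against 7.42 and 7.26 at 0 h, a rise of 2.80. Ube2l6, its conjugating enzyme, rose by 2.68 and Trim25, a ligase, by 0.93. All 4 tested genes of ISG15 conjugation were thus higher, with 3.55% of all genes as the background. The call of Trim25 was lost whichever 1 of the 4 arrays was left out (adjusted p 0.122 to 0.227), and its probe set is of the type that can bind related transcripts.

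Of the genes of the receptor, the kinases, the STAT factors and the SOCS inhibitors, 1 of 17 rose, a share near the 3.55% of all genes, with a median change of 0.23. That was Stat2, which had 9.43 and 9.60 at 24 h, against 5.91 and 5.97 at 0 h, a rise of 3.58 ± 0.16 (adjusted p = 2.56e-06). The receptor subunit Ifnar2 had 10.24 and 10.30 at 24 h, against 9.83 and 10.17 at 0 h, which did not pass the test (adjusted p = 0.527). Of 7 interferon regulatory factors 5 rose. Irf7 stood apart, while Irf1 rose by 1.50, Irf9, the partner of the STAT factors, by 1.22, Irf5 by 0.94 and Irf2 by 0.78. Without 24 h replicate 2 or 0 h replicate 1 the call of Irf9 was lost (adjusted p 0.0782 and 0.0671), and those of Irf5 (0.0756 to 0.124) and Irf2 (0.179 to 0.258) were lost whichever 1 of the 4 arrays was left out. With the 12 arrays of the second run added to the fit 1 of the 7 was called, and 3 once the 2 arrays of that run that go against their labels were left out. Irf3 (8.77 and 8.88 at 24 h, against 8.98 and 8.91 at 0 h) and Irf8 (9.52 and 9.97, against 9.52 and 9.64) did not pass the test.

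Antiviral effectors rose nearly throughout. Of 27 tested, 24 were higher and 0 lower, with a median change of 3.02, against 3.55% of all genes and a median of -0.03. Beside Mx1, Oas3, Isg20 and Ifit3 these included Ifit2, which rose by 5.30, and Rsad2 (viperin, an enzyme that blocks viral replication), which had 12.53 and 12.66 at 24 h, against 7.27 and 7.34 at 0 h, a 39.2-fold rise. The 3 members that did not pass were Oas1b (7.19 and 7.40 at 24 h, against 5.20 and 6.20 at 0 h), Ifitm1 (5.78 and 6.28, against 5.93 and 6.72) and Ifitm2 (12.01 and 12.05, against 12.18 and 12.24). In both Ifitm genes, of a family that blocks virus entry, the fitted change was below 0, at -0.29 for Ifitm1 and -0.18 for Ifitm2.

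All 10 tested interferon-inducible GTPases rose, against 3.55% of all genes, with a median change of 4.25 and a range of 2.85 to 6.22. Gbp2 had 9.84 and 9.93 at 24 h, against 4.34 and 4.47 at 0 h. Gbp6 had 8.64 and 8.79 at 24 h, against 2.52 and 3.08 at 0 h. In both the arrays of a group were close together and the groups were far apart. Ifi47, of the immunity-related GTPases, rose by 4.78, Gbp2b by 4.57 and Gbp3 by 3.92. Several of these genes are close paralogs, whose transcripts a probe set may share.

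Of the 4 Schlafen genes, which act on cell growth and viral replication, 3 rose, against 3.55% of all genes. Slfn1 rose by 5.86, Slfn4 by 4.96 and Slfn2 by 1.54. Slfn8 differed between its 24 h arrays: it had 9.09 and 6.88 at 24 h, against 6.01 and 5.57 at 0 h, and did not pass the test (adjusted p = 0.413).

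Of 11 TRIM and PARP genes, 10 rose, against 3.55% of all genes, with a median change of 2.22. Trim30d rose by 3.29, the ADP-ribosyltransferases Parp14 by 2.78, Parp9 by 2.50 and Parp12 by 2.50, Trim30a by 2.31 and Pml, which organises nuclear bodies, by 2.22. Parp8 had 6.71 and 6.66 at 24 h, against 6.30 and 6.05 at 0 h, and did not pass. This count fell to 8 without 24 h replicate 1, 6 without 24 h replicate 2, 7 without 0 h replicate 1 and 8 without 0 h replicate 2. With the arrays of the second run added to the fit it was 0, and 10 once the 2 that go against their labels were left out.

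Sensors of nucleic acids rose in 6 of 9, against 3.55% of all genes. Dhx58 and Ifih1, cytosolic sensors of viral RNA, rose by 3.38 and 2.80, and Ddx60 rose by 4.01. Ifih1 had 11.02 and 11.07 at 24 h, against 8.11 and 8.38 at 0 h. The adaptors did not pass the test: Mavs, downstream of the RNA sensors, had 7.80 and 7.81 at 24 h, against 7.63 and 7.57 at 0 h, and Sting1, downstream of the DNA sensor cGAS, had 8.17 and 8.30, against 7.18 and 7.73. Of 14 Toll-like receptor genes and partners, 4 rose. Tlr3, which senses viral RNA in endosomes, rose by 2.05 and was called whichever 1 array was left out, while the calls of Tlr7 (rise 0.82), Myd88 (0.81) and Unc93b1 (0.95) were lost without single arrays. The adjusted p of Tlr7 was 0.102, 0.181 and 0.175 without 24 h replicate 1, 24 h replicate 2 and 0 h replicate 1, and whichever 1 of the 4 arrays was left out that of Myd88 was 0.0719 to 0.181 and that of Unc93b1 was 0.0802 to 0.296. Tlr2, a receptor for bacterial lipoproteins, had 9.72 and 9.24 at 24 h, against 10.48 and 10.28 at 0 h, and did not pass (adjusted p = 0.273). Of 13 NF-kB subunits and inhibitors 0 were called in limma, with a median change of 0.02.

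**Figure D3:**
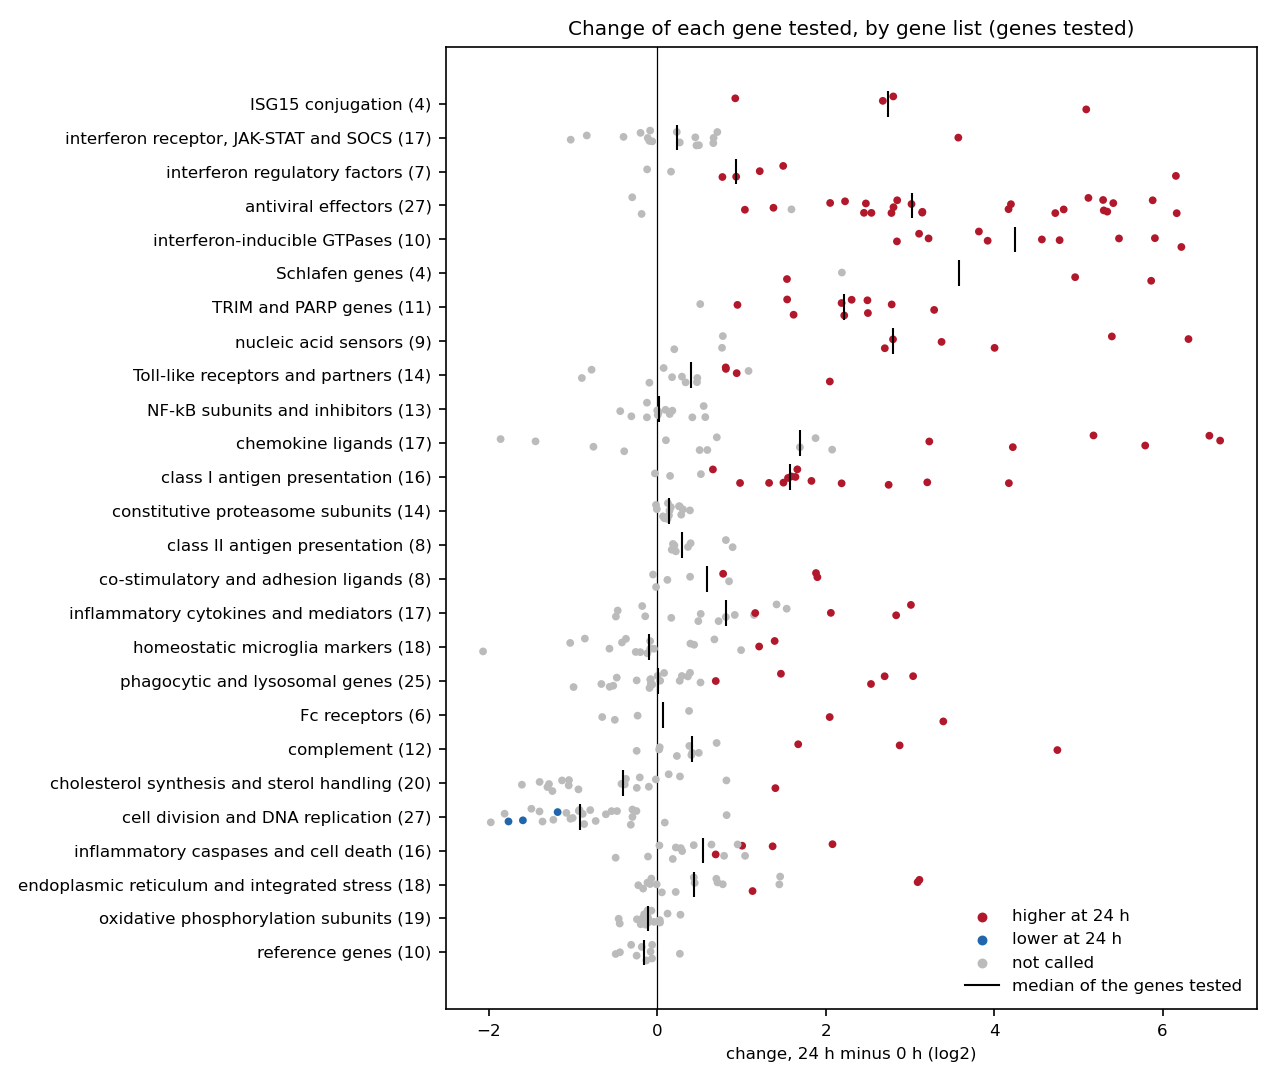
Change in WT microglia, 24 h minus 0 h (log2, horizontal axis), of each gene tested, by gene list (vertical axis, with the number of genes tested in brackets), a black line marking the median of each list. Red points rose, blue points fell and grey points were not called; the GTPases have a median of 4.25 and the antiviral effectors of 3.02, while the cell division genes have a median of -0.92.

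Of 17 chemokine genes tested, 6 rose, against 3.55% of all genes: Cxcl9, Ccl5, Ccl8, Ccl12 (5.18), Cxcl13 (4.22) and Cxcl10 (3.23). Ccl12, a monocyte chemokine, had 9.51 and 9.61 at 24 h, against 4.16 and 4.60 at 0 h. Cxcl13, which attracts B cells, had 10.44 and 11.76 at 24 h, against 6.64 and 7.13 at 0 h, and its call was lost without 0 h replicate 1 (adjusted p = 0.055). Ccl3 and Ccl4, which are expressed by activated microglia, did not pass: Ccl4 had 11.43 and 11.74 at 24 h, against 10.49 and 11.25 at 0 h, and Ccl3 had 10.54 and 10.80, against 10.25 and 10.89.

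Of 16 genes of class I antigen presentation, 13 rose, against 3.55% of all genes, with a median change of 1.57. Tap1, which carries peptides into the endoplasmic reticulum, had 10.07 and 10.31 at 24 h, against 6.73 and 7.24 at 0 h, a rise of 3.21 ± 0.20 (adjusted p = 1.66e-05). The immunoproteasome subunits Psmb9, Psmb8 and Psmb10 rose by 2.75, 2.19 and 1.83. H2-T24, a non-classical class I gene, rose by 4.18, and its many relatives may share its probes. B2m, the light chain of class I molecules, had 13.38 and 13.39 at 24 h, against 12.76 and 12.97 at 0 h, and did not pass (adjusted p = 0.0695). Of 14 constitutive proteasome subunits 0 were called, with a median change of 0.14, and of 8 class II genes 0 were called, with a median of 0.29. Cd74, the class II invariant chain, had 6.82 and 8.08 at 24 h, against 6.24 and 6.86 at 0 h, where the arrays of the groups overlap.

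Among co-stimulatory ligands and adhesion genes, 3 of 8 were called, and none of the 3 calls held without each array in turn. Cd40 had 7.27 and 6.96 at 24 h, against 5.19 and 5.23 at 0 h (adjusted p = 0.0192 with all arrays, 0.0884 to 0.134 without 1). Cd274, which encodes the checkpoint ligand PD-L1, rose by 1.89 (0.0609 to 0.152 without 1 array) and Cd47, a signal that inhibits phagocytosis, by 0.78 (0.0863 to 0.327 without 1 array). Cd86 had 8.43 and 8.76 at 24 h, against 7.48 and 8.0 at 0 h, and did not pass. Over all genes 3.55% were higher.

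Of 17 inflammatory cytokines and mediators, 4 were higher, against 3.55% of all genes. Acod1, which makes itaconate, was called whichever 1 of the 4 arrays was left out too. It had 8.71 and 8.71 at 24 h, against 6.23 and 5.52 at 0 h. Il18bp, which binds and blocks interleukin 18, rose by 3.01, Il15 by 2.06 and Il18 by 1.17. Without 24 h replicate 2 or 0 h replicate 1 the calls of Il15 (adjusted p 0.101 and 0.0956) and Il18 (0.076 and 0.0745) were lost, and without 24 h replicate 2, 0 h replicate 1 or 0 h replicate 2 that of Il18bp was lost (0.0727, 0.0563 and 0.0545). Tnf had 7.61 and 7.43 at 24 h, against 7.72 and 7.60 at 0 h, and did not pass (adjusted p = 0.874).

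Of 6 Fc receptor genes, 2 rose, against 3.55% of all genes. Fcgr4, an activating receptor for immunoglobulin G, had 12.25 and 12.36 at 24 h, against 8.68 and 9.14 at 0 h, a rise of 3.40 ± 0.20 (adjusted p = 1.13e-05). Fcgr1, the high-affinity receptor, had 12.51 and 12.48 at 24 h, against 10.42 and 10.47 at 0 h, a rise of 2.05. The inhibitory receptor Fcgr2b (9.68 and 10.00 at 24 h, against 9.77 and 10.37 at 0 h) and Fcgr3 (11.20 and 11.57, against 11.82 and 12.26) did not pass. Of 12 complement genes 3 rose, Cfb and C2, proteases of the convertases, by 4.75 and 2.88 and C1ra by 1.68. The call of C1ra was lost whichever 1 of the 4 arrays was left out (adjusted p 0.0515 to 0.112). The C1q chains, highly characteristic of microglia, did not pass, with changes of 0.42 for C1qa, 0.24 for C1qb and 0.50 for C1qc.

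Of 25 phagocytic and lysosomal genes 5 rose, against 3.55% of all genes, with a median change of 0.01. Axl, a receptor for dying cells, had 10.10 and 10.75 at 24 h, against 7.60 and 8.17 at 0 h, a rise of 2.54. Ctsh, a lysosomal protease, had 11.05 and 10.95, against 9.77 and 9.29, and rose by 1.47. Lgals3bp rose by 2.70. Cst7 rose by 3.04, a call lost without 24 h replicate 1, 24 h replicate 2 or 0 h replicate 1 (adjusted p 0.062, 0.233 and 0.129), and Grn by 0.70, a call lost whichever 1 of the 4 arrays was left out (0.144 to 0.28). Apoe had 13.97 and 13.87 at 24 h, against 13.92 and 14.03 at 0 h, and did not pass.

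Of 18 genes of resting microglia, 2 were higher and 0 lower, against 3.55% and 0.85% of all genes, with a median change of -0.10. The fitted change was positive in 6 of the 18 and negative in 12, where it was positive in 3519 of all 7528 genes. None was higher without 24 h replicate 1 or 0 h replicate 1, and 1 was without 24 h replicate 2. P2ry12, a purine receptor that marks resting microglia, had 8.29 and 8.03 at 24 h, against 6.75 and 7.14 at 0 h, a rise of 1.21. Aif1 (IBA1) rose by 1.40, and its probe set can bind related transcripts. The call of P2ry12 was lost without 24 h replicate 1 or 0 h replicate 1 (adjusted p 0.0773 and 0.076), and that of Aif1 also without 24 h replicate 2 (0.0542 to 0.0835 over the 3). Csf1r, the receptor for colony-stimulating factor, had 13.29 and 13.08 at 24 h, against 13.34 and 13.25 at 0 h, and did not pass. Gpr34, a lysophospholipid receptor, had 6.21 and 5.94 at 24 h, against 7.33 and 8.95 at 0 h, and did not pass either (adjusted p = 0.0901). With the 6 WT arrays alone in the fit 3 genes of the list were higher and 1 lower, where 366 and 260 of all genes were. With the replicate number within a genotype as a block 4 were higher and 3 lower, where 635 and 677 of all genes were.

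Genes of cell death and of the stress response rose in part, where 3.55% of all genes rose. Of 16 caspase and death genes 4 rose: Daxx by 2.08, Bak1, which permeabilises mitochondria, by 1.37, Bid by 1.01 and Mcl1, which inhibits death, by 0.70. With the mean of a gene's kept probe sets in place of the brightest, 1 gene of this list was higher, where 254 of all genes rose. The calls of Bid (adjusted p 0.144, 0.224 and 0.249) and Mcl1 (0.12, 0.293 and 0.281) were lost without 24 h replicate 1, 24 h replicate 2 and 0 h replicate 1. Of 18 genes of endoplasmic reticulum and integrated stress 3 rose. Nupr1 had 10.16 and 9.66 at 24 h, against 6.90 and 6.74 at 0 h, a rise of 3.09 ± 0.37 (adjusted p = 0.00138). Ddit3 (CHOP) had 10.57 and 10.72, against 7.44 and 7.63, and its regulator Atf4 had 10.87 and 10.88, against 9.86 and 9.62. These calls were lost whichever 1 of the 4 arrays was left out, with an adjusted p of 0.0519 to 0.0788 for Ddit3 and of 0.0601 to 0.122 for Atf4. Hspa5 (BiP), the chaperone of the unfolded protein response, had 11.68 and 11.74 at 24 h, against 11.47 and 11.51 at 0 h, and did not pass.

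Of the 64 genes that fell 3 were in a list (4.69%), of the 267 that rose 114 (42.7%), and of all genes tested 394 (5.23%). The lists were drawn up around the interferon response with earlier results of these data known. Hnmt, which inactivates histamine, had the lowest adjusted p of the named falls, with 4.23 and 4.35 at 24 h, against 6.17 and 6.58 at 0 h (a change of -2.09 ± 0.19, adjusted p = 0.000214). Sort1, the sorting receptor sortilin, had 7.12 and 7.51 at 24 h, against 8.96 and 9.02 at 0 h (-1.67, adjusted p = 0.00343). Rhoj, a small GTPase, had 4.03 and 3.84, against 5.85 and 6.10 (-2.04, adjusted p = 0.00406). Anxa3, a membrane-binding annexin, had 8.91 and 8.96, against 10.70 and 10.76 (-1.80, adjusted p = 0.00417). In these 4 genes the groups lay well apart, and the calls held whichever 1 of the 4 arrays was left out.

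The calls of the largest falls were lost in fits without single arrays, which leave 1 array in a group. Cytip, which regulates leukocyte adhesion, had 5.03 and 4.85 at 24 h, against 8.69 and 7.62 at 0 h (-3.21 ± 0.62, adjusted p = 0.0211). Its adjusted p was 0.106, 0.155 and 0.188 without 24 h replicate 1, 24 h replicate 2 and 0 h replicate 1. Arg2, the mitochondrial arginase, had 3.59 and 4.28 at 24 h, against 6.68 and 7.0 at 0 h (-2.90 ± 0.47, adjusted p = 0.00804). Its call was lost without 24 h replicate 1, 0 h replicate 1 or 0 h replicate 2 (0.0821, 0.055 and 0.0736). Dkk2, a secreted modulator of Wnt signalling, had 6.54 and 6.01, against 8.20 and 8.98, and its call was lost whichever 1 of the 4 arrays was left out (0.0601 to 0.199).

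The other 8 named falls lay between -2.12 and -1.62. They were Adamts1, an extracellular protease, Sult1a1, a sulfotransferase, Vcl (vinculin), which links adhesion sites to actin, Ppic, a cyclophilin, Bub1, a kinase of the spindle checkpoint, Fam20c, a kinase of secreted proteins, Dnajb4, a co-chaperone, and Tcim. Each lost its call without at least 1 of the 4 arrays. Bub1 lost it without 24 h replicate 2 (adjusted p = 0.147). Sult1a1 lost it without 24 h replicate 1 (0.0807) and Dnajb4 without 24 h replicate 2 (0.0557) or 0 h replicate 1 (0.0556). Adamts1 (0.092 to 0.211) and Tcim (0.0601 to 0.184) lost it without 24 h replicate 1, 0 h replicate 1 or 0 h replicate 2, and Vcl (0.107 to 0.265), Ppic (0.129 to 0.267) and Fam20c (0.0769 to 0.246) whichever 1 of the 4 was left out. In 8 of the 15 largest falls the mean 24 h value lay below the median of the 24 h arrays, where the size of a change depends on the low end of the scale.

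Genes of cell division were the list with the lowest median among the pathway lists, at -0.92. Of 27 tested, 3 fell and 0 rose, against 0.85% and 3.55% of all genes. In 25 of the 27 the fitted change was negative. Over all 7528 genes tested, it was positive in 3519. Bub1 had 5.20 and 4.74 at 24 h, against 6.95 and 6.51 at 0 h (-1.76 ± 0.32, adjusted p = 0.0144). Birc5 (survivin), which acts in chromosome segregation, had 5.72 and 6.13, against 7.64 and 7.40 (-1.59). Mcm7, of the replicative helicase, had 8.28 and 7.92, against 9.54 and 9.01 (-1.18). The groups did not overlap in any of these genes, but the calls were lost without single arrays: Bub1 without 24 h replicate 2 (adjusted p = 0.147), Mcm7 without 24 h replicate 1, 24 h replicate 2 or 0 h replicate 1 (0.087, 0.275 and 0.255) and Birc5 whichever 1 of the 4 was left out (0.16 to 0.285). With the 6 WT arrays alone in the fit, or the 4 compared alone, 14 of the genes fell. Over all genes tested 260 and 303 fell in these fits, against 64 in the main fit. Pcna, the sliding clamp of replication, had 11.98 and 12.29 at 24 h, against 12.36 and 12.40 at 0 h, and did not pass, nor did Ccnd1 (10.45 and 10.03, against 10.27 and 10.02).

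The summed markers of astrocytes, neurons and border macrophages stood lower at 24 h, but not every member did. Aldh1l1 and Gja1 of the astrocyte list, Map2 of the neuron list and Ms4a7 of the border macrophage list stood higher on both 24 h arrays. They were chosen after their values were seen, and the values of Gja1 and Map2 lay below the array median. The 10 astrocyte markers summed to 57.9 and 57.1 at 24 h, against 61.4 and 59.5 at 0 h, with 6 below the array median at 24 h and 7 at 0 h. The 8 neuron markers summed to 31.3 and 28.1, against 35.8 and 32.1, with 7 below the array median at 24 h and 6 at 0 h. The 7 border macrophage markers summed to 46.3 and 47.7, against 51.6 and 53.7, with 3 below the median at both times. None of the 5, 4 and 4 tested genes of these lists was called, with median changes of -0.83, -1.16 and -1.17. Oligodendrocyte markers summed to 60.2 and 57.2 at 24 h, against 62.0 and 57.5 at 0 h, and those of fibroblasts and endothelium to 54.0 and 53.3, against 55.2 and 51.4, in both of which the groups overlap. Of the 7 oligodendrocyte genes tested 1 rose, Cnp, by 0.87, a call lost whichever 1 of the 4 arrays was left out (adjusted p 0.11 to 0.144). The part of other cells in the falls was not tested.

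Over all 7528 genes tested, 3519 changes were positive, and by the test 0.85% of the genes were lower and 3.55% higher. Genes of cholesterol synthesis and sterol handling had a median change of -0.40, with 16 of 20 negative, 0 lower by the test and 1 higher. The exception was Abcg1, which exports cholesterol and rose by 1.40, a call lost without 24 h replicate 2 (adjusted p = 0.101) or 0 h replicate 1 (0.103). Hmgcs1, an early enzyme of the pathway, had 9.26 and 8.72 at 24 h, against 10.24 and 10.00 at 0 h, and did not pass (adjusted p = 0.342). With the 6 WT arrays alone in the fit, or the 4 compared alone, 5 of the genes fell, where 260 and 303 of all genes fell. Of 19 oxidative phosphorylation genes 0 were called (median -0.11), and of 10 reference genes 0 were called (median -0.15).

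Against the 6 h arrays, which came from the same run, the 24 h level was higher in 543 genes (7.21%) and lower in 544 (7.23%). This comparison shares the 24 h arrays with the one above. The count of 1087 genes in both directions was 290 without 24 h replicate 1, 316 without 24 h replicate 2, 692 without 6 h replicate 1 and 364 without 6 h replicate 2. Several chemokines, cytokines and signalling genes stood lower at 24 h than at 6 h. Cxcl10 had 5.43 and 5.45 at 0 h, 12.70 and 12.53 at 6 h, and 8.24 and 9.10 at 24 h. Acod1 had 6.23 and 5.52 at 0 h, 12.98 and 13.06 at 6 h, and 8.71 and 8.71 at 24 h. Both were thus lower at 24 h than at 6 h, by 3.95 and 4.31 on the log2 scale (adjusted p = 0.000725 and 0.00111), while above their 0 h arrays. The same held of Cd40 (adjusted p = 0.00141 against 6 h).

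Mmp13, a collagenase, and Cxcl11, a chemokine of T cells, were lower at 24 h than at 6 h by 4.63 and 4.59, and did not pass the test against 0 h (adjusted p = 0.107 and 0.21). Tnf had 7.72 and 7.60 at 0 h, 10.59 and 10.66 at 6 h, and 7.61 and 7.43 at 24 h. Its 24 h level was lower by 3.11 than that at 6 h (adjusted p = 0.00193) and overlapped the 0 h arrays. Lhx2, a transcription factor, was lower by 4.13, with all its 0 h and 24 h values below the array median.

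By gene group, 12 of 27 antiviral effectors, 9 of 10 GTPases, 8 of 17 chemokines and 10 of 17 inflammatory cytokines and mediators were lower at 24 h than at 6 h, against 7.23% of all genes, and 1, 0, 0 and 0 were higher, against 7.21%. These group counts were not recomputed without single arrays. Others did not pass this test. Irf7 had 6.55 and 6.39 at 0 h, 12.48 and 12.82 at 6 h, and 12.53 and 12.74 at 24 h, and Ccl5 had 12.31 and 12.19 at 6 h, where 24 h minus 6 h was -0.02 for Irf7 and 0.29 for Ccl5 (adjusted p = 0.959 and 0.58).

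The named genes that stood higher at 24 h than at 6 h include some that were low at 6 h. Gpr34 had 7.33 and 8.95 at 0 h, 2.53 and 2.85 at 6 h, and 6.21 and 5.94 at 24 h. Dkk2 had 8.20 and 8.98 at 0 h, 2.98 and 3.33 at 6 h, and 6.54 and 6.01 at 24 h. The 24 h level of Gpr34 was higher by 3.38 than that at 6 h (adjusted p = 0.0065, and 0.0548 without 24 h replicate 1) and that of Dkk2 by 3.12 (0.00419), while both means lay below 0 h. St8sia4 and St6gal1, sialyltransferases, were higher by 3.17 and 3.03, Arrb1, an arrestin, by 2.71, and Ptpn22, a phosphatase, by 2.63. The call of St6gal1 was lost whichever 1 of the 24 h and 6 h arrays was left out (adjusted p 0.0802 to 0.12), and that of Ptpn22 without 24 h replicate 1 (0.0754), 24 h replicate 2 (0.0598) or 6 h replicate 2 (0.061). Ctsh differed from these: it was 9.77 and 9.29 at 0 h, 10.10 and 9.88 at 6 h, and 11.05 and 10.95 at 24 h, higher than both earlier times by the test (adjusted p = 0.0108 against 6 h).

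**Figure D4:**
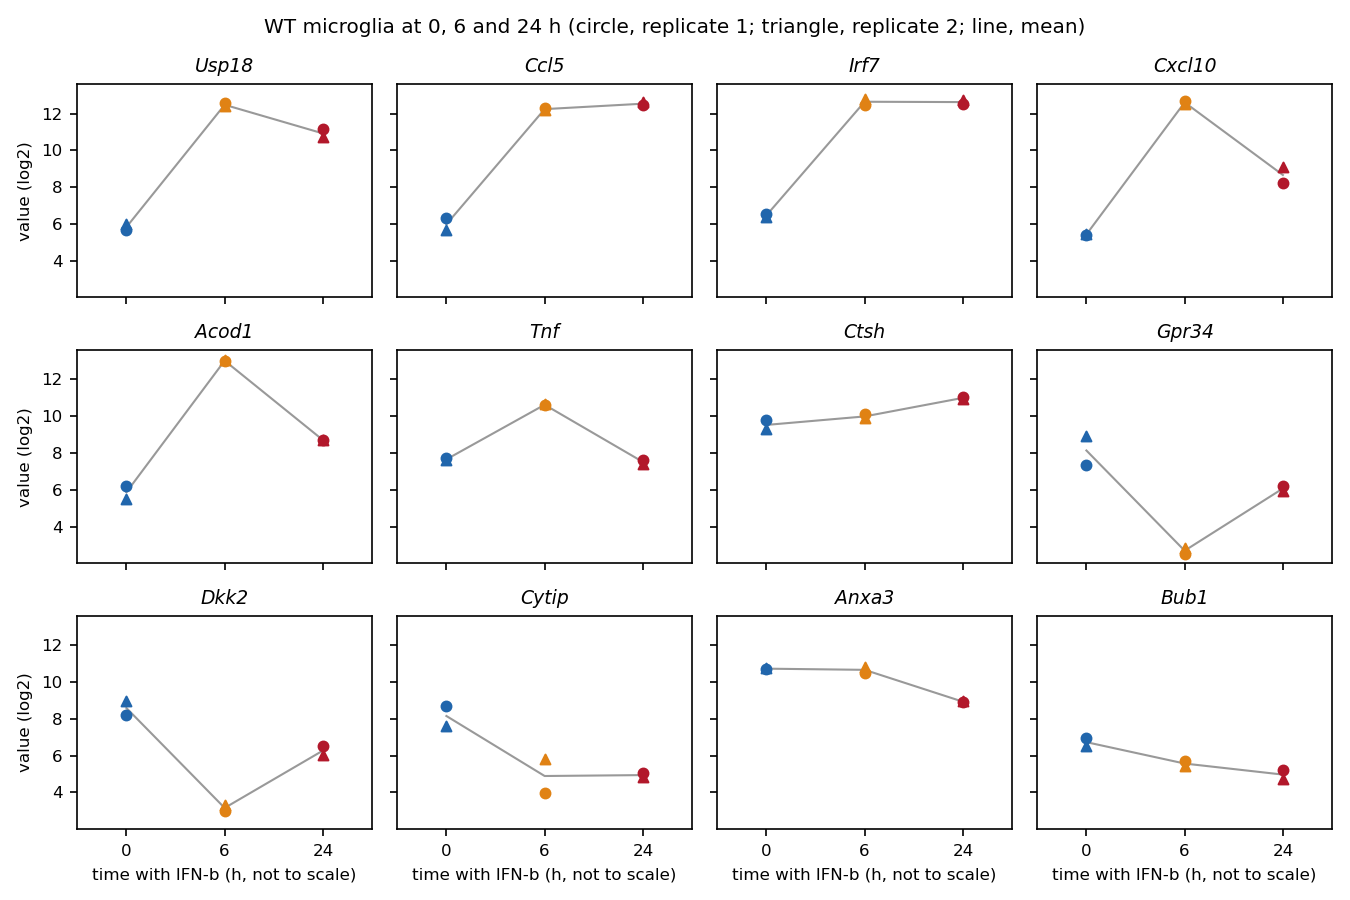
Deposited value (log2, vertical axis) of 12 genes on each WT array at 0, 6 and 24 h of IFN-b (horizontal axis, not to scale), circles for replicate 1, triangles for replicate 2 and a line through the means. The 24 h means of Irf7 and Ccl5 differ from those at 6 h by -0.02 and 0.29, Cxcl10, Acod1 and Tnf are lower at 24 h than at 6 h by 3.95, 4.31 and 3.11, and Gpr34 and Dkk2 are higher by 3.38 and 3.12.

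The change of WT microglia over 24 h was next compared with that of KO microglia of the same run, as the difference of the 24 h changes in limma. The WT change was the more positive in 127 genes (1.69%) and the more negative in 36 (0.478%). The 163 genes in all were 83 without WT 24 h replicate 1, 74 without WT 24 h replicate 2, 80 without WT 0 h replicate 1, 94 without WT 0 h replicate 2, 90 without KO 24 h replicate 1 and 82 without KO 24 h replicate 2. Usp18 had 11.15 and 10.71 at 24 h, against 5.68 and 5.99 at 0 h, in WT microglia, and 5.92 and 5.97 at 24 h, against 4.40 and 3.77 at 0 h, in KO microglia. The change in KO microglia was 1.86 (adjusted p = 0.0394). The WT change exceeded it by 3.23 ± 0.38 (adjusted p = 0.00283).

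Leading interferon-stimulated genes were high in KO microglia without IFN-b. Ms4a4c, which rose by 6.82 in WT microglia, had 12.87 and 12.86 at 24 h, against 12.73 and 12.11 at 0 h, in KO microglia. Irf7 had 13.30 and 13.51, against 13.10 and 12.78, there, and Ccl5 had 13.23 and 13.13, against 12.90 and 11.96. All these KO values, those at 0 h included, lie near or above the WT level at 24 h. The differences of the changes, WT minus KO, were 6.37 for Ms4a4c, 5.70 for Irf7 and 5.80 for Ccl5, and likewise 5.74 for Iigp1, 5.70 for Oas3 and 5.65 for Ifi209. These 6 calls held whichever 1 array was left out.

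Over the 15 largest WT rises the KO changes lay between 0.16 and 2.77, and 0 of them were called in KO microglia. The difference passed the test for 13 of the 15, against 1.69% of all genes. These genes were chosen by the WT change, which is part of the difference, so the count is no separate support. Cxcl9 and Ccl8 were the exceptions, with KO changes of 2.77 and 2.13 and differences of 3.91 (adjusted p = 0.104) and 3.67 (0.137). By group, the WT change was the larger by the test in 22 of 27 antiviral effectors, 10 of 10 GTPases, 7 of 16 class I genes and 4 of 17 chemokines, against 1.69% of all genes.

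Over the 15 largest WT falls the KO changes lay between -1.04 and 1.74. The difference passed the test for 4, Cytip, Arg2, Hnmt and Sort1, against 0.478% of all genes. These falls too were chosen by the WT change. Cytip fell by 3.21 in WT microglia and had a KO change of 1.74, a difference of -4.95 (adjusted p = 0.025). Klf4, a transcription factor, had 4.14 and 3.36 at 24 h, against 5.69 and 5.45 at 0 h, in WT microglia, a change that did not pass (adjusted p = 0.108), and its difference was -4.25. Socs2 (-3.71), Arg2 (-3.27), Plagl1 (-3.14) and Tspan13 (-2.99) completed the 6 most negative differences. Of the 6, Tspan13 kept its call whichever 1 of the 8 arrays was left out. Arg2 lost it without each of them (adjusted p 0.0913 to 0.18), and 4 genes kept it without only 2 of the 8 in turn. These were WT 0 h replicate 2 and KO 24 h replicate 1 for Cytip (0.0565 to 0.111 without the others), KO 24 h replicate 1 and KO 0 h replicate 1 for Klf4 (0.0515 to 0.111), both KO 0 h arrays for Socs2 (0.0624 to 0.0976), and WT 0 h replicate 2 and KO 0 h replicate 1 for Plagl1 (0.0713 to 0.134).

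The second run of WT arrays, which shares no array with the first, gave 6 called genes of 7960 for 24 h against 0 h (0.0754%), and 721 at an unadjusted p under 0.05. In that run the untreated replicate 1 carried Usp18 at 12.97, against 9.31 in replicate 2, and the 24 h arrays had 12.67 and 12.69, so that this array goes against its label. The untreated replicate 2 also stood above the first run's untreated arrays in Usp18 and in Acod1 (11.77, against 6.23 and 5.52). This difference between runs was not tested. The other array of that run that goes against its label, on earlier results of these data, is C61A 6 h replicate 2. Leaving out the untreated replicate 1 for its own high values raises the 24 h change of genes such as Usp18 in itself. Figures without it are thus no separate support, and that run then keeps 1 untreated array. Of its single arrays, leaving out 24 h replicate 1 or 2 gave 0 called genes, 0 h replicate 1 gave 63 and 0 h replicate 2 gave 2. The called genes were H2-K1, Il1b, LOC664787, Ms4a6b, Ms4a6d and Slfn1, named here because they are all of the count, after their values were seen. Il1b rose there by 2.62, whereas in the first run its change was -0.49 and did not pass (adjusted p = 0.557).

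The genes that rose in the first run were mostly positive in the second, in 243 of 267 (91.0%), against 47.4% of all genes. Of the 64 that fell, 48 were negative (75%), against 52.6% of all genes. Without the untreated replicate 1, these counts were 254 and 55, against 43.0% positive and 57.0% negative over all genes. The 15 largest rises were all positive in the second run, at 0.71 to 4.73 with all its arrays and 2.80 to 7.69 without the untreated replicate 1. Of the 15 largest falls 9 were negative with all arrays and 11 without that array, and 0 of the 15 passed the test there even without the arrays that go against their labels. A direct test of the difference between the runs called 0 genes (0%) in limma and 501 at an unadjusted p under 0.05, and 14 without 0 h replicate 2 of the second run.

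**Figure D5:**
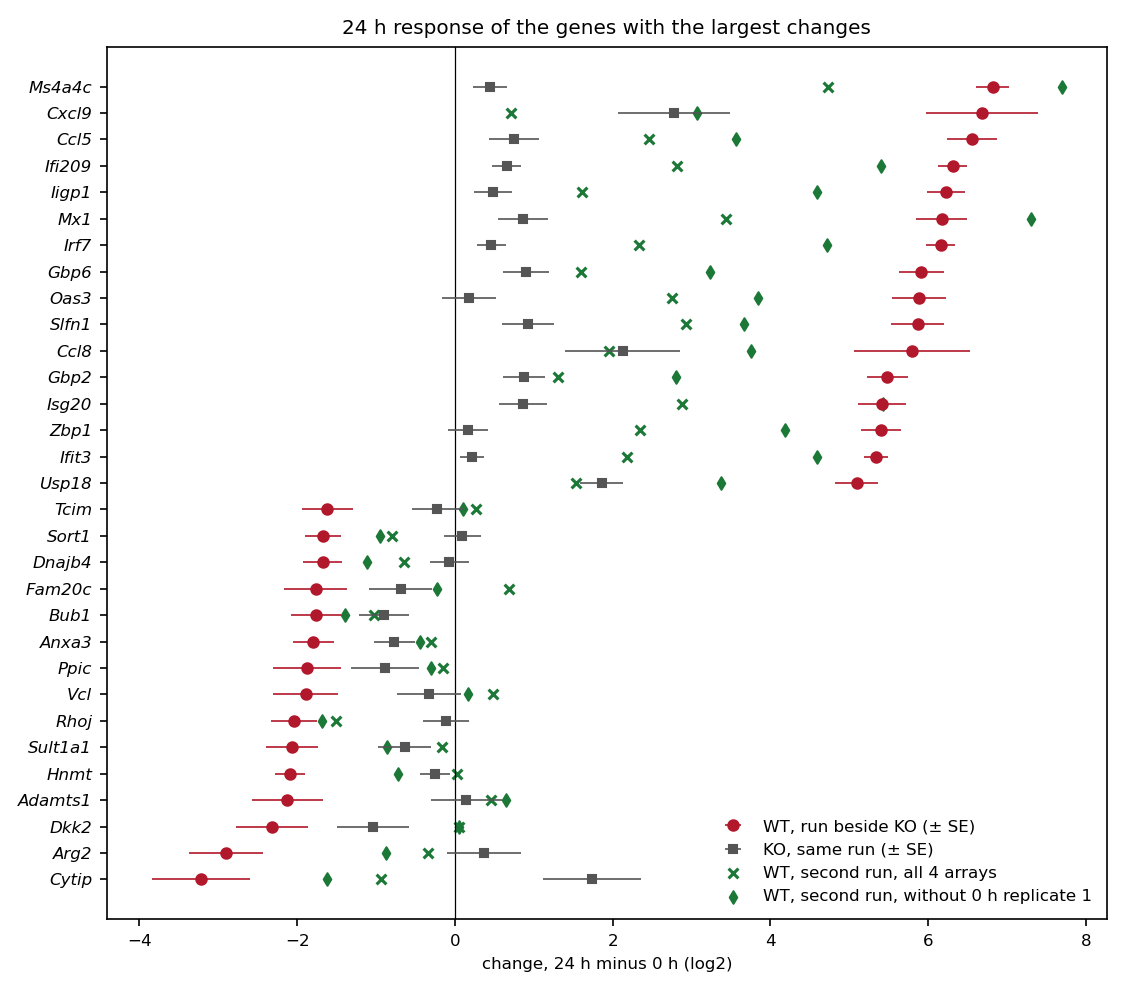
Change from 0 h to 24 h (log2, horizontal axis) of the genes with the largest changes and Usp18 (vertical axis), in WT microglia of the first run (red circles, ± SE), KO microglia of the same run (grey squares, ± SE) and WT microglia of the second run with all 4 arrays (green crosses) or without its untreated replicate 1 (green diamonds). KO changes of the 15 largest rises lie between 0.16 and 2.77, left of the WT changes, and the diamonds of those rises lie between 2.80 and 7.69.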

How the data were processed

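Total RNA of primary microglia was labelled with biotin in a 3′ one-cycle protocol and hybridised to Affymetrix arrays of 22690 probe sets, per the labels. The deposited values are intensities on a log2 scale, 1 column an array: the log base is inferred from their range, affy is named in the submitters' processing notes, and the normalization is not given in the sources used here. They were used as deposited.

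Of the probe sets 20393 name 1 gene, 691 name several and 1606 are not in the probe table; the last 2 kinds were left out, leaving 12394 genes. Probe sets that exceeded the array median on fewer than 2 of the fitted arrays were dropped, and of a gene's remaining probe sets the brightest on average was used, for 7528 genes. The fit was limma 3.58.1 in R 4.3.3 (lmFit and eBayes) over the 12 arrays of the run that holds WT and KO, in 6 groups with 6 residual degrees of freedom, so that all groups share the estimate of the spread. P-values were adjusted by the Benjamini-Hochberg method over all genes tested, with 0.05 as the threshold. The second WT run was read from a fit of 24 microglia arrays (7960 genes, 12 residual degrees of freedom). The 34 gene lists held 546 genes, 394 of them tested. The arrays compared and the lists were chosen with earlier results of these data known.

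Named were Usp18; up to 15 genes with the largest rise and 15 with the largest fall among called genes whose arrays do not overlap; for each list up to 6 called members with the largest change and 3 not called with the highest level; and up to 6 genes in each direction with the largest called difference of 24 h from 6 h, of WT from KO, and of the first from the second WT run. Any other gene is named as chosen after its values were seen, and Ifit1 for its promoter. Promoter sequences are RefSeq's (GRCm38.p6). The model was tested on simulated data. Alternatives changed the filter, the probe set rule, the normalization, the moderation, the arrays fitted and the replicate block, and left out each array in turn. Plots were made in Python 3.11.15 (matplotlib 3.10.9).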

Additional observations from a re-analysis of the deposited data

Results flagged for a closer look

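The 24 h change differed between WT and KO microglia by the test of the difference itself in 163 genes. Among the named genes the difference of the changes (WT minus KO, log2) was positive for Ms4a4c (6.37), Ccl5 (5.80), Iigp1 (5.74), Oas3 (5.70), Irf7 (5.70) and Ifi209 (5.65), which were high in untreated KO microglia. It was negative for Cytip (-4.95), Klf4 (-4.25), Socs2 (-3.71), Arg2 (-3.27), Plagl1 (-3.14) and Tspan13 (-2.99). Probe sets outside the comparisons also carried the response. Of 455 kept probe sets that name several genes, 27 were higher at 24 h (5.93%) and 2 lower. Of 594 kept probe sets that are not in the probe table, 18 were higher (3.03%) and 4 lower. Of the 11741 kept probe sets that name 1 gene, 320 were higher (2.73%) and 66 lower.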

How the results depend on the processing

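The counts of genes that rose and fell stayed within 1.5 times their main values of 267 and 64 without the filter (238 and 61), with a filter on the mean (270 and 47), with the mean of a gene's probe sets (254 and 65), after quantile normalization (260 and 63), after centring on array medians (269 and 55), with a trended robust moderation (283 and 54) and over 24 arrays without the 2 that go against their labels (301 and 83). With all 24 arrays 130 rose, and of the 99 named genes called 44 lost their call; 0 of 11 TRIM and PARP genes, 1 of 7 interferon regulatory factors, 15 of 27 antiviral effectors, 4 of 10 GTPases and 5 of 16 class I genes were then higher, against 10, 3, 24, 10 and 11 without the 2 that go against their labels. With the 6 WT arrays alone 260 fell, with the 4 compared alone 303, and the share of rises among calls was then 58.5% and 55.8%, against 80.7%. Leaving out single arrays of the 4 compared gave 144 to 179 rises and 9 to 16 falls, and of the other 8 arrays of the fit, chosen after seeing the data, 215 to 312 rises and 36 to 90 falls. Leaving out single arrays of each comparison gave 290 to 692 genes that differed between 24 h and 6 h (1695 with the 6 WT arrays), 74 to 146 between WT and KO changes (57 with 24 arrays), 0 to 63 in the second run, and 0 to 14 between runs. In the second run 2 genes were called with no filter, with the mean of probe sets, or after centring, and 213 without the 2 arrays that go against their labels. No direction of a named call turned under the alternatives run. The causes were not tested.

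The replicate numbers are biological replicate numbers of the labels, which do not say that a number marks a shared culture. Deviations from group means correlated between same-numbered WT arrays (0.394 to 0.662) and KO arrays (0.699 to 0.824), a hint from the data that rests on 2 pairs. Between WT and KO arrays the correlations were -0.118 to -0.0667. Xist of WT replicates 1 and 2 was 10.75 and 5.42 at 0 h, 10.27 and 5.11 at 6 h, and 10.66 and 5.41 at 24 h. The main fit does not use the replicate numbers. With the replicate number within a genotype as a block 635 genes rose and 677 fell (48.4% rises), 2550 differed between 24 h and 6 h, 974 between WT and KO, 381 in the second run and 15 between runs. All 99 named calls were kept.

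Signal limits the sizes: the mean 0 h value of 50 of the 267 genes that rose lay below the median of the 0 h arrays, and the mean 24 h value of 24 of the 64 that fell below that of the 24 h arrays.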

Other observations

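F13a1, a border macrophage marker chosen after its values were seen, had 5.07 and 6.20 at 24 h, against 8.45 and 9.65 at 0 h, and 7.91 and 9.45 at 6 h. Its change from 0 h to 24 h of -3.42 ± 1.31 was larger in size than that of Cytip, the largest called fall, and did not pass the test (adjusted p = 0.233 in limma). In the second WT run its change was -0.42, and -0.34 without the untreated replicate 1.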
